A study of Mus musculus with 6 samples.

Results

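Dppa2 peaks at the most CpG-rich promoters are the rows of the V5-Dppa2 peak list that sit at the start of 1 protein-coding gene, in DNA where CpG dinucleotides have been kept at close to the number that base composition predicts. A peak was included if the nearest transcription start site (TSS) in the GENCODE M1 annotation belonged to a protein-coding gene, if no other protein-coding gene had a TSS within 1000 bp of the peak midpoint, and if the CpG observed/expected ratio (the count of CpG divided by the count expected from the C and G present, called CpG ratio here) was at least 0.9 in the 1000 bp centred on the midpoint. Of 3336 peaks in the list, 616 met this rule, at 616 different genes. They made up 18.5% of all peaks and 23.8% of the 2586 peaks at single-gene protein-coding promoters. The other 1970 single-gene peaks were 548 with a CpG ratio under 0.6, 514 from 0.6 to 0.75 and 908 from 0.75 to 0.9. The list held 711 peaks with a ratio of at least 0.9, of which 65 lay near the TSSs of 2 or more protein-coding genes and 27 had a gene of another type nearest.

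The list comes from an anti-V5 chromatin immunoprecipitation with sequencing (ChIP-seq) of CGR8 cells, a mouse embryonic stem cell (ESC) line grown without feeders in serum and LIF. The cells stably expressed Dppa2 with a V5 tag at its N terminus from a pPyCAG vector in puromycin-selected clones, so the peaks are those of an added, constitutively driven protein. The parental CGR8 line, without the tag, served as the control ChIP, and the series further holds ChIP of 4 histone modifications (H3K4me1, H3K4me3, H3K27ac and H3K9me3) in ESCs. Each condition had 1 library, and the 5 samples other than V5-Dppa2 were not analysed here. The sequencing depth is unknown, a peak list carries no marker genes by which to check the cell type, and without a second V5-Dppa2 library no value below has a replicate error.

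Dppa2 is a small nuclear protein with a SAP domain, a DNA-binding fold, and is expressed in the early embryo, the germ line and ESCs. CpG dinucleotides have been lost from most of the mouse genome because methylated cytosine mutates to thymine, and they survive in CpG islands, which stay unmethylated and cover the promoters of most broadly used genes and many developmental regulators. Unmethylated CpGs are read directly by proteins with a CXXC zinc finger, such as Kdm2b and Cfp1, which bring Polycomb complexes or H3K4 methyltransferases to these promoters.

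The sequences under 6 of the peaks show how far CpG content and GC content can be separated from each other. They are stretches of 240 bp at or near the peak midpoint that overlap no UTR, in the direction of the gene, from mm9, with every CpG in capitals. The Slk and Acvr2a stretches (chr19:47653928-47654167, plus strand, and chr2:48669389-48669628, plus strand, both upstream of the gene) come from members with some of the highest CpG ratios and held 49 and 48 CpGs. The Atf7ip stretch (chr6:136467485-136467724, plus strand, intron) shows a high ratio of 1.11 at a GC content of 59.6%, with 22 CpGs. The Irf2bp2 stretch (chr8:129117468-129117707, minus strand, upstream of the gene) lies under the widest member and held 51 CpGs at a GC content of 88.8%. The Klf4 stretch (chr4:55545424-55545663, minus strand, upstream of the gene) represents the pluripotency genes. The Syce1 stretch (chr7:147973474-147973713, minus strand, overlapping a coding exon) is a contrast from a bound promoter that is not a member, with 13 CpGs.
Slk: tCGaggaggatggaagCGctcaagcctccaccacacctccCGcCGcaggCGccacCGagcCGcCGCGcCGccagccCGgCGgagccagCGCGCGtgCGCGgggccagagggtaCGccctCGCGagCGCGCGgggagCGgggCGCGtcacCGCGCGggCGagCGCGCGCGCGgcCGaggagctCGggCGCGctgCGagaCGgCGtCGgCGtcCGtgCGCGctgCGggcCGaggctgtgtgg
Acvr2a: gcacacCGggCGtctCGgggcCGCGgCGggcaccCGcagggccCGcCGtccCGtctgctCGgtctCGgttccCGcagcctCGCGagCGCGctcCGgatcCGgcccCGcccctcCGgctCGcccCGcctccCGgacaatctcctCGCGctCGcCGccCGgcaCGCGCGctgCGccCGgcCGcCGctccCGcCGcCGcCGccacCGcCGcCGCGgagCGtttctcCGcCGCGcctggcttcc
Atf7ip: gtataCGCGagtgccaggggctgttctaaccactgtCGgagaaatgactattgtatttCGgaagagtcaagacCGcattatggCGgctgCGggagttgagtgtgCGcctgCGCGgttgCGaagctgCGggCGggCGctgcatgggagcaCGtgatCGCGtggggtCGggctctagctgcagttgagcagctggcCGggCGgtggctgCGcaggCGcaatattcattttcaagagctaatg
Irf2bp2: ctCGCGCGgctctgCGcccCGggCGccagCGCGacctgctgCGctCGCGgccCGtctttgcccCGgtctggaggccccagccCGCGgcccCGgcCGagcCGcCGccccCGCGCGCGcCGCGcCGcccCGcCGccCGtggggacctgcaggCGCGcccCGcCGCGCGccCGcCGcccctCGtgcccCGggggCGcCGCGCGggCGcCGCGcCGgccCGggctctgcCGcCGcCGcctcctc
Klf4: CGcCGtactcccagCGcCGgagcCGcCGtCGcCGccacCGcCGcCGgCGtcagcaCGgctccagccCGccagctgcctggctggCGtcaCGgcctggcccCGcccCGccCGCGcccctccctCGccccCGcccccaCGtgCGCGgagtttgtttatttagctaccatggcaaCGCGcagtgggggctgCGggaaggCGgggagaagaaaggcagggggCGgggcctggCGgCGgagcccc
Syce1: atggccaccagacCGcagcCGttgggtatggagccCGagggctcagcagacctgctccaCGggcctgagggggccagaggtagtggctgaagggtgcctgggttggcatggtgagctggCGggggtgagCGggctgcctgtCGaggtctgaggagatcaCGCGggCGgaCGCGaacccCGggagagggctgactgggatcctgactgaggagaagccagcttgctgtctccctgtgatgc

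To ask how often Dppa2 was found at promoters of this kind, each protein-coding gene was represented by the TSS that most of its transcripts share. A promoter was called bound if a peak midpoint lay within 1000 bp of any TSS of the gene. The peak can therefore lie at another TSS than the one around which the CpG ratio was taken. Genes with more TSSs had more chances to be called bound, and the shares were not corrected for this. Of all 19541 single-gene promoters, 2693 were bound, or 13.8%. Of the 1515 promoters with a CpG ratio of at least 0.9 around the TSS, 563 were bound, or 37.2% (95% interval 34.7% to 39.7% by the exact method of Clopper and Pearson, for counting error alone). Of the 18026 promoters below 0.9, 2130 were bound, or 11.8% (interval 11.3% to 12.3%). The share went up with the ratio from 1.42% of 4784 promoters below 0.2 to 14.9% at 0.5 to 0.6, 30.0% at 0.8 to 0.9, 35.6% at 0.9 to 1.0 and 43.2% at 1.0 to 1.1. Of the 20 promoters with a ratio of at least 1.1, 7 were bound (35%, interval 15.4% to 59.2%). No step was seen at 0.9. Of the 616 members, 512 also had a ratio of at least 0.9 when the window was centred on the TSS of the gene and not on the peak. With only peaks that scored at least 200, the bound share was 21.1% of CpG-rich and 7.00% of other promoters.

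**Figure D1:**
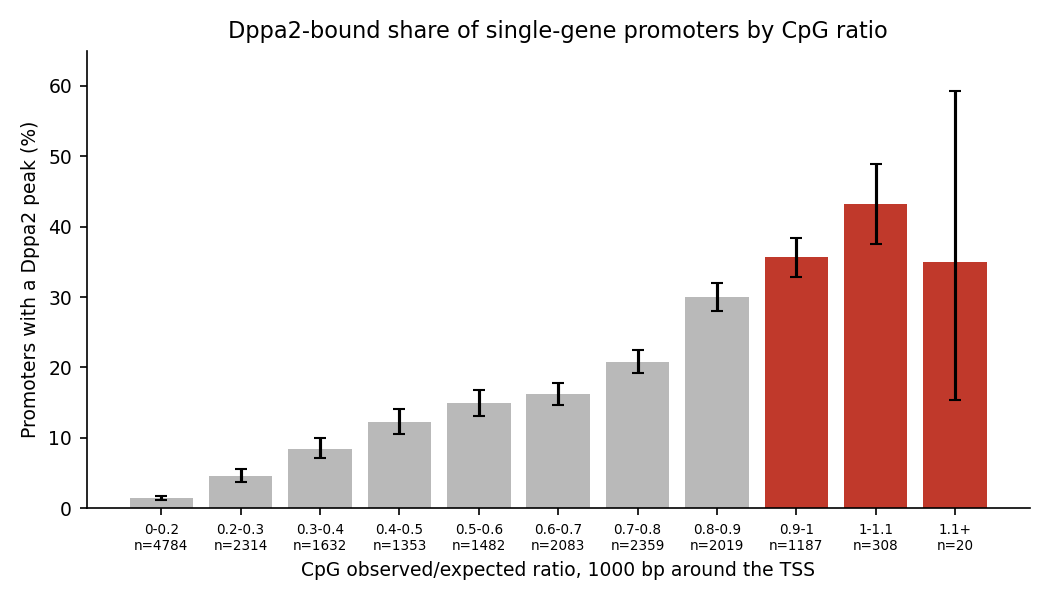
Share of single-gene protein-coding promoters with a Dppa2 peak (percent, vertical axis) in bins of the CpG ratio around the TSS (horizontal axis, with the number of promoters under each bin). Bars are shares, error bars are exact 95% Clopper-Pearson intervals and bins of at least 0.9 are red. The share climbs from 1.42% in the lowest bin to 43.2% at 1.0 to 1.1.

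CpG-rich promoters differ among themselves in GC content, and the bound share differed with it. Of the CpG-rich promoters with a GC content under 60%, 33 of 259 were bound (12.7%, interval 8.94% to 17.4%). The share was 23.8% at 60% to 65%, 37.5% at 65% to 70% and 55.4% at 70% to 75%, and 105 of 161 promoters with a GC content of at least 75% were bound (65.2%, interval 57.3% to 72.5%). Promoters with a CpG ratio of 0.6 to 0.9 had bound shares of 10.7%, 24.9%, 37.9% and 48.0% in the first 4 of these bands, and each of these intervals overlapped that of the CpG-rich promoters in the same band. In the highest band 17 of 45 were bound (37.8%, interval 23.8% to 53.5%), below the interval of the CpG-rich promoters. Promoters with a ratio under 0.6 had a bound share of 5.21% below a GC content of 60% (interval 4.80% to 5.64%). This lay below the intervals of both other classes in that band. At 60% to 65% the share of promoters with a ratio under 0.6 was 23.8%. At 65% to 70%, 11 of 46 were bound (23.9%, interval 12.6% to 38.8%), below the shares of both other classes, with intervals that overlapped theirs. Bound and unbound CpG-rich promoters had median GC contents of 70.3% (interval 69.7% to 71.0%) and 64.8% (64.3% to 65.3%). Their median CpG ratios were 0.958 and 0.949. Both groups had been limited to ratios of at least 0.9, which left the ratio, unlike GC content, little room to differ. The spread across GC bands was also there with peaks that scored at least 200 (7.34% to 41.0%) and without chromosomes 8, 11 and X (11.7% to 63.5%). GC content can also alter the yield of fragments in a sequencing library, and as reads of the control ChIP were not analysed here, its part in these shares was not tested.

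**Figure D2:**
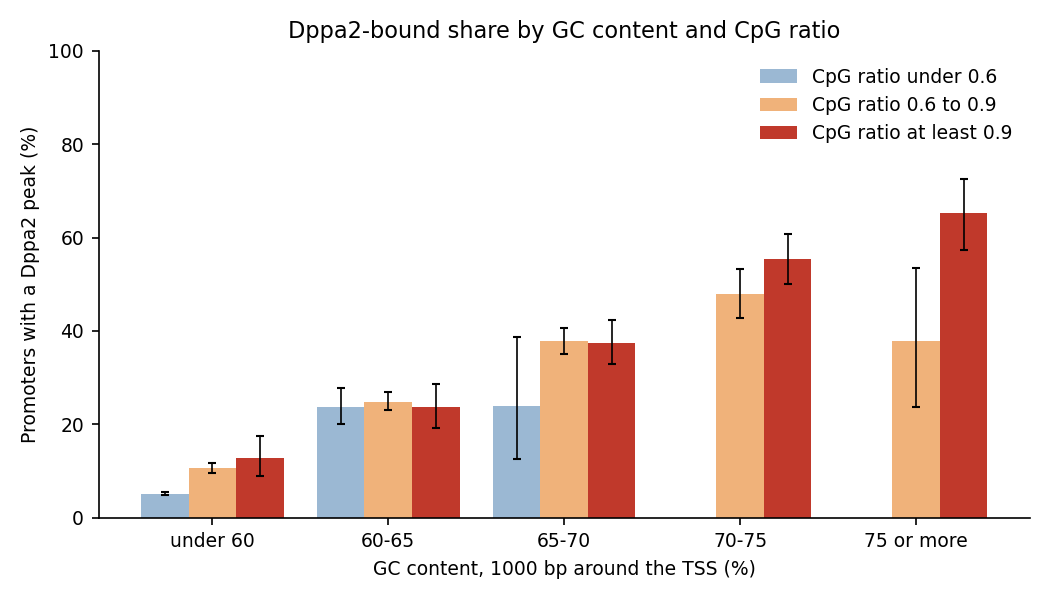
Share of single-gene promoters with a Dppa2 peak (percent, vertical axis) by GC content of the 1000 bp around the TSS (horizontal axis), for 3 ranges of the CpG ratio. Bars are shares with exact 95% Clopper-Pearson intervals, and bars of fewer than 20 promoters are left out. CpG-rich promoters run from 12.7% in the lowest to 65.2% in the highest GC band.

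Islands were also longer at bound promoters. The CpG island at the TSS was taken as the run of 200-bp windows with a GC content of at least 50% and a ratio of at least 0.6. Its median length was 1250 bp at the bound and 1100 bp at the unbound CpG-rich promoters. Islands under 1000 bp were bound in 19.2% of 402 cases, those of 1000 to 1500 bp in 40.0% of 804, those of 1500 to 2000 bp in 54.2% of 249 and those of 2000 to 3000 bp in 50.0% of 58, and neither of the 2 longer ones was bound. Island length and GC content go together, and within GC bands the picture was mixed. Islands of at least 1300 bp were bound more often than shorter ones at a GC content of 60% to 65% (36.8% of 57 against 21.1% of 284) but not at 70% to 75% (54.7% of 190 against 56.3% of 151). The 500 bp beyond the central window differed as well on the gene side, where the median CpG ratio from 501 to 1000 bp downstream of the TSS was 0.713 at bound and 0.632 at unbound promoters, while upstream it was 0.395 and 0.376.

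The score of a peak is −log10 of the p-value from MACS for the ChIP against the control, multiplied by 10. It is not a measure of the size of the excess. The authors kept only peaks past limits on p-value and reads, and the lowest score in the list was 100.01. The members had a median score of 226 (95% interval of the median 212 to 238), with quartiles at 151 and 335 and a range from 100.1 to 2290. The other single-gene peaks had a median of 224, all peaks 228 and the single-gene peaks with a ratio under 0.6 had 257 (interval 239 to 285). A score of at least 200 was reached by 356 members, or 57.8% (interval 53.8% to 61.7%), and by 59.3% of all peaks. Scores of at least 500 were found for 59 members (9.58%) and for 9.75% of the other single-gene peaks. In the class under 0.6 they were found for 90 of 548 peaks (16.4%, interval 13.4% to 19.8%), above the interval of the members (7.37% to 12.2%). There were 12 members among the 100 highest peaks of the list, while members made up 18.5% of all peaks. CpG-rich promoters were thus bound more often, while the median score of the peaks at them was close to that of all peaks, and high scores were more frequent in the class under 0.6. Among the 616 members the score had a Spearman's rho of 0.061 with the CpG ratio and 0.064 with GC content. The rule limits members to ratios of at least 0.9, which narrows the range over which the first value was taken. Over all 2586 single-gene peaks the values were -0.037 and -0.039. All are descriptions over regions that share 1 library.

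**Figure D3:**
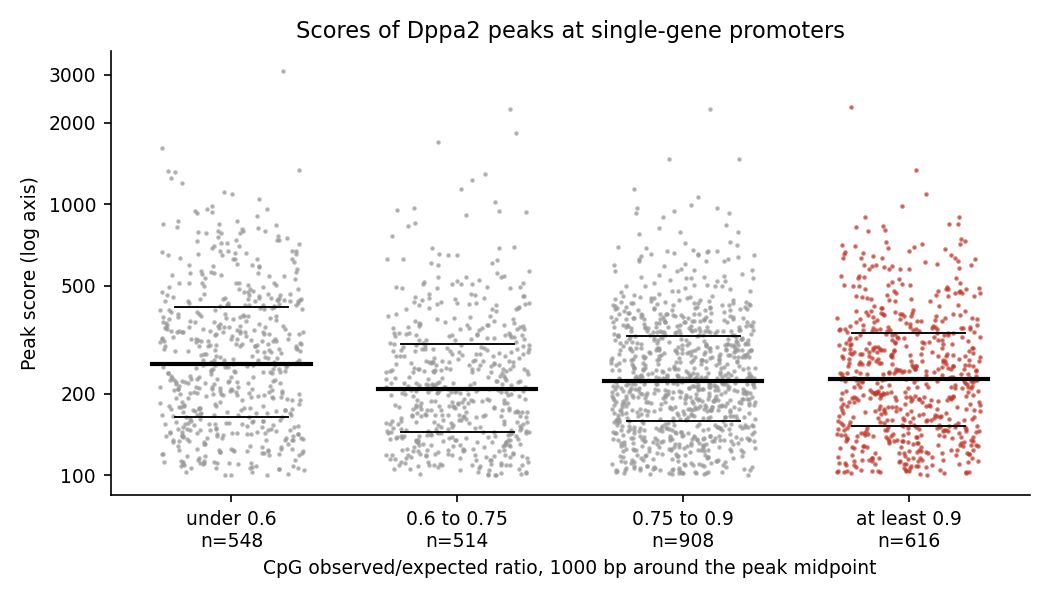
Peak score (log axis) of every Dppa2 peak at a single-gene protein-coding promoter, by CpG ratio around the midpoint, with the members in red. Thick lines are medians and thin lines quartiles. The median of the members is 226, against 257 in the class under 0.6, and the 4 distributions overlap over nearly their whole range.

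The strongest members belonged to genes of varied function. The highest score, 2290, was found at Nefm, which encodes the medium neurofilament subunit of neuronal axons. It ranked second in the whole list, and its peak was 2990 bp wide with a CpG ratio of 0.942 and a GC content of 63.2%. Cnnm1, a member of the cyclin M family of metal transport mediators, followed with 1338, and its relative Cnnm3 had 803. Arhgap20, a GTPase-activating protein, had a score of 1092. Papd5, a non-canonical poly(A) polymerase, had 986 and Cdk5r1, the p35 activator of Cdk5 in neurons, had 900. Next came Vps54, a tethering factor of transport to the Golgi, with 893 and Clock, the core circadian transcription factor, with 847. Ranbp17, of the nuclear transport receptor family, scored 844 and Plxna1, a semaphorin receptor, 828. Otud1, a deubiquitinase, scored 827 and Rdx, the membrane linker radixin, 796. These 12 genes lay on 9 chromosomes and, except for Nefm, had a GC content of at least 69.0% around the midpoint. None of them reached the 10% of repeated sequence described for a few members further on. At the other end, Cux1, a homeodomain factor, had 100.1, Dusp5, a phosphatase of ERK, 101.2, and Frat2, an inhibitor of Gsk3, 101.6.

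The members with the highest CpG ratio were not those with the highest score. Chd7, a chromatin remodeller, had the highest ratio, 1.20, and a score of 150. Acvr2a, an activin receptor, had 1.14 and a score of 201. Ctdp1, a phosphatase of the RNA polymerase II tail, had 1.13 and 223, and Slk, a Ste20-like kinase, had 1.13 and 258. Sfmbt1, a protein with MBT domains, and Atf7ip, a partner of the H3K9 methyltransferase Setdb1, both had 1.13, with scores of 498 and 514. Atf7ip reached this ratio with a GC content of 51.8%, against 76.5% at Sfmbt1. In all, 163 members had a ratio above 1. At the threshold itself, Rtn4r (0.90001, score 140), Dnajc21 (0.9005, score 246) and 2700081O15Rik (0.9005, score 296) lay just inside, and Sipa1l1 (0.8998, score 102.1), Ntan1 (0.8997, score 114) and Hcn2 (0.8996, score 144) just outside.

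Peaks at these promoters covered the TSS and much of the island. Their median width was 1559 bp (interval 1520 to 1588), against 1391 bp for the other single-gene peaks. Peaks started at a median of −674.5 bp and ended at a median of 883 bp relative to the TSS. The TSS lay inside the peak in 614 of 616 cases, the exceptions being Lemd1, where the midpoint lay 725 bp upstream, and Trim33, where it lay 860 bp downstream. This was so for 97.7% of the other single-gene peaks as well. Since the rule keeps midpoints within 1000 bp of a TSS, part of this closeness follows from it. The median midpoint lay 112 bp downstream of the TSS (interval 91 to 133), and 74.0% of the midpoints were downstream, as were 73.8% in the other single-gene peaks. Within 250 bp of the TSS lay 69.6% of the members' midpoints (interval 65.8% to 73.3%) and 60.8% of the others. Among those, the share was 65.5% at a ratio of 0.75 to 0.9 (interval 62.3% to 68.6%). It was 65.6% at 0.6 to 0.75 and 48.4% under 0.6. The midpoint fell in a UTR at 227 members (36.9%), in a coding exon at 169 (27.4%), in an intron at 130 (21.1%) and upstream of the gene at 87 (14.1%). For the other single-gene peaks these shares were 24.6%, 30.7%, 26.8% and 16.8%.

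Wider peaks lay over longer islands. Across the 616 members the Spearman's rho between peak width and island length was 0.564, against 0.299 over the 2403 single-gene peaks with an island. Median peak width was 1268 bp in members with islands of up to 1100 bp, 1455 bp with islands of 1150 to 1300 bp, 1636 bp with 1350 to 1550 bp and 1925 bp with 1600 to 2650 bp, while the median score moved only from 221 to 235. The whole island lay inside the peak at 376 members (61.0%). The widest members were Irf2bp2, a transcriptional corepressor, with 5005 bp, Samd1, a protein with a SAM domain that binds CpG islands, with 3931 bp, and Ing1, a reader of H3K4me3, with 3409 bp, and all 3 lie on chromosome 8. The narrowest were Rfk, the riboflavin kinase, with 778 bp, Nek2, a centrosomal kinase, with 846 bp, and Atp11b, a phospholipid flippase, with 853 bp, over islands of 850, 950 and 1100 bp.

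**Figure D4:**
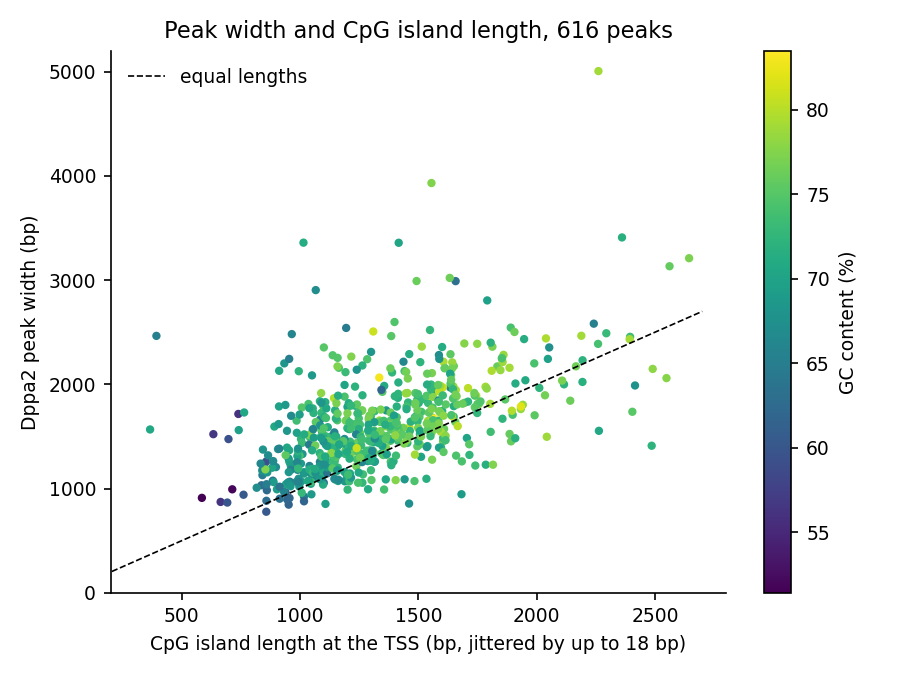
Peak width (bp, vertical axis) against the length of the CpG island at the TSS (bp, horizontal axis, jittered) for the 616 members, coloured by GC content around the midpoint (percent). The dashed line marks equal lengths. Width and island length go up together (Spearman's rho 0.564), and the widest peak, of 5005 bp, is that of Irf2bp2.

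The 1000 bp around the members' midpoints had a median of 126 CpGs and a GC content of 72.8%, against 75 CpGs and 64.3% at other single-gene peaks, both of which follow in part from the rule. Outside the window the rule used, the median CpG ratio at 501 to 1000 bp was 0.564 upstream and 0.572 downstream of the midpoint. It was 0.419 and 0.434 for peaks with a ratio of 0.75 to 0.9, and 0.258 and 0.254 for those under 0.6. The genes had a median length of 60798 bp from end to end, against 24251 bp for the other single-gene peaks. Among those, the median was 41223 bp at a ratio of 0.75 to 0.9 and 8241 bp under 0.6. Gene length was not compared with that at unbound CpG-rich promoters. A TSS of another, mostly non-coding, gene lay within 1000 bp at 68 members (11.0%) and at 5.43% of the others. Sequence that recurs in the genome was rare: 488 members (79.2%) held no 36-mer found elsewhere in mm9. Repeated 36-mers made up over 10% of only 13 members (2.11%), against 11.4% of the other single-gene peaks. In the class under 0.6, where high scores were more frequent, this held for 124 of 548 peaks (22.6%). Among the 13 members, all 36-mers of the Snx9 peak were repeated, as were 84.9% at Nudt10 and 43.8% at Vmn1r90. Reads from the repeated part of these peaks cannot be assigned to 1 locus. Without the 13 the median score was 227.

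Short motifs were counted on both strands in the 1000 bp around the TSS. The GC box GGGCGG, the site of Sp1, was present at 98.4% of bound and 97.1% of unbound CpG-rich promoters, and at 56.3% of all single-gene promoters. The ETS motif CCGGAAG was found at 20.6% of the bound (interval 17.3% to 24.2%) and 31.7% of the unbound (28.8% to 34.8%) CpG-rich promoters, and at 16.3% of all promoters. The NRF1 motif GCATGCGC was found at 7.10% and 11.9% (all promoters 4.74%), the TATA box TATAAA at 10.5% and 18.6% (all 34.0%) and CCAAT at 48.8% and 57.1% (all 70.7%). The E-box CACGTG was found at 20.2% and 23.9% (all 16.3%), the CRE TGACGTCA at 5.33% and 5.57% (all 2.95%), the Kaiso motif CTCGCGAG at 5.15% and 6.30% (all 1.71%) and the octamer ATGCAAAT at 1.78% and 3.05% (all 4.25%). The GC box, ETS, NRF1, E-box, CRE and Kaiso motifs contain CpG. As GC content differs between bound and unbound promoters, the counts were repeated at a GC content of 65% to 75%. There the ETS motif was found at 20.1% of 344 bound and 25.4% of 410 unbound promoters, NRF1 at 6.98% and 11.0%, TATAAA at 7.85% and 11.2% and CACGTG at 19.2% and 27.1%. The intervals of these pairs overlapped. A match is a string of letters and not a site of binding.

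Members were found on 20 chromosomes. On chromosome 8, 42 of 77 CpG-rich promoters were bound (54.5%, interval 42.8% to 65.9%), and 164 of its 822 other promoters (19.95%). Over all chromosomes these shares were 37.2% of CpG-rich and 11.8% of other promoters, so both classes were bound more often on chromosome 8. Chromosome 11, with 33 of 90 (36.7%), was close to the CpG-rich promoters of the genome, although 18.4% of its other promoters were bound. On the X, 3 of 16 CpG-rich promoters were bound, and 1.69% of the others. The median GC content of CpG-rich promoters was 66.6% on chromosome 8, 66.7% on chromosome 11 and 67.0% overall. In each of the 5 GC bands the share on chromosome 8 was above that of the other chromosomes, for example 13 of 22 (59.1%) against 36.3% at 65% to 70%, with overlapping intervals in every band. The number of copies of chromosome 8 in these cells was not tested.

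The members' genes were set against 18 lists of gene groups, and 472 of the 616 were in none of them. Counts are given as bound promoters among the CpG-rich promoters of the group, to be read against 37.2%, followed by the members. Shares of a group's other promoters are to be read against 11.8%, that of all promoters with a ratio under 0.9. Bound promoters are counted by the CpG ratio around the TSS that represents the gene, and members by the ratio around the midpoint. A member named here therefore need not be among the bound CpG-rich promoters of its group. Germline and meiosis genes contributed no member: their only CpG-rich promoter, Ythdc2, was not bound, although 25 of their 56 other promoters were (44.6%). Syce1, a synaptonemal complex gene, belongs there, with a peak of score 785 and a ratio of 0.587. All 3 CpG-rich pluripotency promoters were bound, which allows a share as low as 29.2%, and they were members: Lifr, the LIF receptor, with a score of 280, and the Krüppel-like factors Klf4 with 204 and Klf5 with 127. Of the 27 other pluripotency promoters 1 was bound, and Nanog, Esrrb, Mycn and Pou5f1 were neither bound nor CpG-rich. Tcfcp2l1 and the cardiac factor Nkx2-5 had peaks with ratios of 0.615 and 0.591 and scores of 158 and 109.

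The bound shares of developmental transcription factors and signalling genes lay below and above 37.2%, but both intervals included that value and overlapped each other. Of 30 CpG-rich promoters of developmental transcription factors 8 were bound (26.7%, interval 12.3% to 45.9%), and 12 factors were members, led by Sox18 with a score of 490, Foxn2 with 480, Nkx6-2 with 236 and Foxj3 with 228. At Nkx6-2, Sox18 and Foxc2 the midpoint lay 877, 607 and 826 bp into the gene, so that the window around the midpoint and that around the TSS differed. In Wnt, FGF, BMP, TGFb and Notch signalling 11 of 19 CpG-rich promoters were bound (57.9%, interval 33.5% to 79.7%), against 24.8% of the group's other promoters. The 15 members included the Wnt receptor Fzd9 with a score of 593, the BMP effector Smad1 with 443, the ligand Wnt5b with 396 and the activin and TGFb effector Smad2 with 359. Axon guidance had 2 of 4 bound, Plxna1 and Plxnc1 (103), and Efnb2 (119) was a further member. Adhesion had 2 of 4, Cdh4 (158) and Itgb1 (113), both members.

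The 2 groups with the most CpG-rich promoters gave the most members, at bound shares near that of all CpG-rich promoters. Kinases and phosphatases had 27 of 65 CpG-rich promoters bound (41.5%, interval 29.4% to 54.4%) and 29 members, among them Cdk5r1, Ppp4r1 (575), Ppp2r5a (461) and Stk38l (393). Ubiquitin ligases and proteases had 21 of 58 (36.2%, interval 24.0% to 49.9%) and 26 members, led by Fbxl17 (709), Klhl21 (470), Rnf139 (372) and Usp15 (329). GTPase regulators had 16 of 31 (51.6%, interval 33.1% to 69.8%) and 18 members, with Arhgap20 followed by Agap1 (711), Rhobtb3 (504) and Rhou (401.4). Chromatin regulators had 13 of 35 (37.1%) and 13 members, led by the H3K9 demethylase Phf2 (681), the H3K9 methyltransferase Suv39h2 (343), the remodeller Chd1 (333) and Phf3 (297). Solute carriers had 11 of 19 (57.9%) and 8 members, with Slc22a23 (595) and Slc23a2 (346) highest. Zfp zinc finger genes had 7 of 25 (28.0%) and 4 members, led by Zfp652 (225). Motors and cilia had 4 of 9, with Cep78 (578), Kif13a (379), Kif1b (357) and Ttc34 (211) as members. Ion channels had 3 of 7 and 5 members, among them Kcnmb4 (237). Neurotransmitter receptors had 1 of 5, the glutamate receptor subunit Grin1, while their member was the serotonin receptor Htr7 (328), whose window around the TSS was below 0.9. The extracellular matrix had the single member Emilin3 (172). With the exception of ribosomal proteins, the interval of every group with a CpG-rich promoter included 37.2%.

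Housekeeping genes of protein synthesis and respiration held no member. None of the 12 CpG-rich promoters of ribosomal protein genes was bound, which allows a share of up to 26.5%, and none of 6 in mitochondrial respiration and the mitochondrial ribosome, which allows up to 45.9%. These promoters were CpG-rich at a low GC content, with a median of 57.8% and a highest value of 61.7% for ribosomal proteins and a median of 60.8% for the mitochondrial group. CpG-rich promoters below 60% were bound in 12.7% of cases over the whole genome. Dppa2 was found at some of the other promoters of these groups. Among those, 14 of 116 were bound for ribosomal proteins (12.1%) and 6 of 107 for the mitochondrial group (5.61%). The share of all promoters with a ratio under 0.9 was 11.8%.

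**Figure D5:**
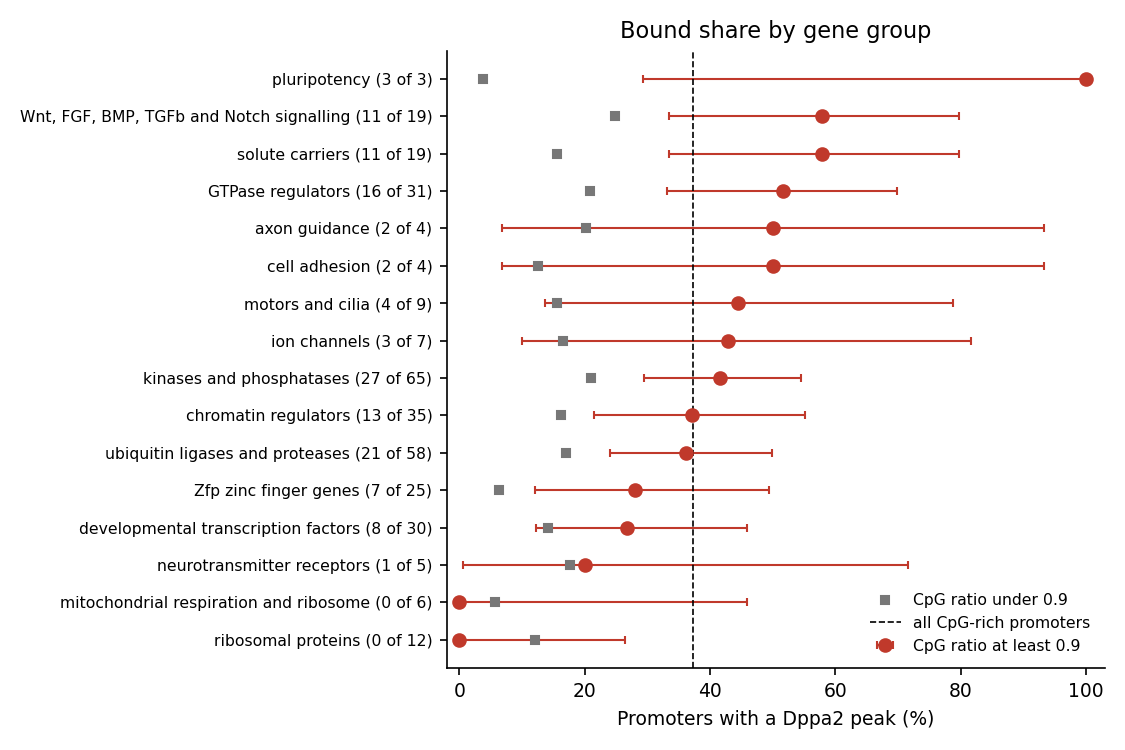
Share of promoters with a Dppa2 peak (percent, horizontal axis) for the gene groups with at least 3 CpG-rich promoters. Red points are CpG-rich promoters with exact 95% intervals and counts beside the name, grey squares the group's other promoters, and the dashed line is the 37.2% of all CpG-rich promoters. Ribosomal protein genes, with 0 of 12, are the group whose interval ends below the line.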

How the data were processed

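Peaks of the V5-Dppa2 ChIP were read from the deposited list, whose score the authors made with MACS as 10 times the −log10 of the p-value against the control ChIP. Per the methods and the submitters' processing notes, the authors filtered out low-complexity reads, aligned the rest to mm9 with Bowtie 0.12.7, reported the best alignment of reads with several, removed duplicates (Picard 1.81 is also listed), called peaks with MACS 1.4.2 and kept those past limits on p-value and reads. Each peak has an interval and a score, and no summit or read count, so midpoints were used and depth is unknown.

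The TSSs of GENCODE M1 and the sequence of mm9 were used with Python 3.11.15, numpy 2.4.6, pandas 2.3.3, scipy 1.17.1 and numba 0.67.0. Islands were built from windows of 200 bp in steps of 50 bp, found within 300 bp of the TSS. Shares carry exact Clopper-Pearson intervals and medians binomial order-statistic intervals, both at 95%. With 1 library per condition no test between conditions was made. Genes named are the 12 highest-scoring members, the extremes of ratio, score and width, the neighbours of the threshold, up to 4 members of each list and genes the study names; Ythdc2, Grin1, Foxc2, Lemd1, Trim33, Snx9, Nudt10 and Vmn1r90 were named after their values were seen. Members and lists were chosen with earlier results of these data known. The split by GC content, the island split, the chromosome bands and the motif counts within a GC band were added after the data were seen. Position, CpG and 36-mer counts were tested on simulated data. The genome sequence held no repeat masking, and a share of masked bases was not computed. A gene that the rule would name and a sequence are not reported here.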

Additional observations from a re-analysis of the deposited data

How the results depend on the processing

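With the CpG ratio taken over 500 bp or 2000 bp in place of 1000 bp, there were 1014 or 211 members, with a median width of 1480 or 1597 bp, a GC content of 71.1% or 74.5%, and 31% or 51.7% of CpG-rich promoters bound. With a ratio of at least 0.85 or 0.95 there were 942 or 350 members, with a GC content of 71.8% or 73.65%, and at 0.95 the bound share was 40.1%. With a score of at least 200 there were 356 members, their median score was 310 and the bound share was 21.1%. Among the other 32 values, the number of members was 598 with the window centred on the TSS and 594 with 1 gene required within 500 bp, and the rest lay inside the interval of the reported value. No paired analysis was possible because each condition had 1 library. Neither the spread between ChIPs nor the effect of depth could be measured, and no replicate could be left out.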
